A study of Mus musculus with 23 samples.

Results

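The UDP-glucuronosyltransferases (UGTs) are enzymes of the endoplasmic reticulum membrane that transfer a sugar, in most of the family the glucuronic acid of UDP-glucuronate, to small lipophilic molecules. The conjugates are water-soluble and leave the hepatocyte in bile or blood. UGT1A1 is the enzyme that conjugates bilirubin in the liver, the UGT2B enzymes act largely on steroids, bile acids and drugs, and human UGT3A1 is known to use UDP-N-acetylglucosamine in place of UDP-glucuronate. Transcripts of 10 UGT genes (Ugt1a1, Ugt2a3, Ugt2b1, Ugt2b5, Ugt2b34, Ugt2b35, Ugt2b36, Ugt2b37, Ugt2b38 and Ugt3a1) were followed here, taken by their symbols from the 27179 genes of the count table. The table holds 11 further genes of the family, which are described after them.

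The RNA came from the livers of 15 female mice, sampled where no tumor was visible, and every mouse carried an Alb-Cre transgene, which is active in hepatocytes, and the Trp53 flx/flx alleles. The 6 Ctrl mice had wild-type Braf and were Icmt flx/+. The 6 ABpIF/+ mice also carried the BrafCA/+ allele, from which Cre produces Braf V600E, and were Icmt flx/+, and the 3 ABpIF/F mice (BG183, BG38 and BG90) carried the same Braf and Trp53 alleles with Icmt flx/flx. Icmt encodes the methyltransferase that completes the processing of prenylated proteins such as RAS, so the groups address what the mutant Braf does to the liver and what loss of Icmt changes in that setting. The flx allele of Icmt, present in all groups, is hypomorphic, with a lowered level even where Cre has not acted. Only 3 mice of the ABpIF/F genotype were obtained by the study, and they differed in age, with no source used here giving which of them was which age. The ages of the other mice sampled for RNA and the collection times were not given either. The paper reports weight loss and signs of illness in ABpIF/+ mice, but not in Ctrl or ABpIF/F mice. Age and illness thus cannot be told apart from genotype here.

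The libraries held 24742910 to 32262649 counted reads. Icmt itself lay between 27.8 and 34.7 CPM (counts scaled to the size of the library) in Ctrl, between 27.8 and 37.4 in ABpIF/+ and between 15.2 and 16.6 in ABpIF/F livers. All 9 hepatocyte markers, Alb among them, were detected in every group, and their summed level was 118192 to 158242 CPM in Ctrl, 199810 to 276114 in ABpIF/+ and 165669 to 256910 in ABpIF/F mice. Alb and Trf carried this sum. The means of Ahsg (9406 and 17360 CPM in Ctrl and ABpIF/+), Hnf4a (595 and 848), F2 (1880 and 2266) and Asgr1 (454 and 508) were also higher in ABpIF/+ mice. Those of Ttr (4216 and 2399 CPM), Cps1 (4225 and 2768) and Apob (5267 and 4879) were lower. For Apob the log2 fold change was only -0.11 ± 0.19 (SE). Of the Ctrl mice, only BG3 carried the strain label of the ABpI mice, so strain and genotype cannot be told apart in the other 5, and BG3 is given beside the results that depend on it. The clock genes of the 3 ABpIF/F mice and of the Ctrl mouse malpa387 stood apart from the rest (Arntl, Clock and Npas2 minus Dbp, Tef, Per2, Per3, Nr1d1 and Nr1d2, mean log2 CPM of -0.32 in malpa387, -1.27, -0.40 and 1.26 in ABpIF/F, and -6.53 to -4.77 in the other 11 mice). Apart from malpa387 this score nearly coincides with the ABpIF/F group. A fit with the score as a covariate therefore leans on that mouse and cannot cleanly separate clock from genotype. In bulk tissue, fewer cells of a type and less RNA per cell cannot be told apart.

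8 of the 10 genes lie in one cluster on chromosome 5. In GRCm38 coordinates the order along the chromosome is Ugt2b34 (chr5:86889767-86906937), Ugt2b1 (chr5:86916638-86926530), Ugt2b35 (chr5:87000860-87013275), Ugt2b36 (chr5:87065927-87092555), Ugt2b5 (chr5:87124960-87140318), Ugt2b37 (chr5:87240493-87254804), Ugt2a3 (chr5:87324972-87337195) and Ugt2b38 (chr5:87409942-87424203). Each of these has 6 exons, and all but Ugt2b35 are on the minus strand. Ugt1a1 (chr1:88211959-88218997) has a first exon of its own and shares its remaining exons with the other Ugt1a genes, so that 58.9% of its 2224 exon bases also belong to another gene and only the remaining 913 bases can separate it. Ugt3a1 (chr15:9276888-9315032) lies beside Ugt3a2 on chromosome 15.

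Ugt2b5, Ugt2b35, Ugt2b36, Ugt2b37 and Ugt2b38 are close copies of each other. Ugt2b1 and Ugt2b34 are more distant, with coding sequences 71.1% to 74.5% identical to those of the other Ugt2b genes and to each other. The coding sequences of Ugt2b5 and Ugt2b38 were 97.0% identical, those of Ugt2b5 and Ugt2b37 94.7%, those of Ugt2b35 and Ugt2b36 88.3% and those of Ugt3a1 and Ugt3a2 93.2%, whereas Ugt1a1 shared between 50.8% and 55.7% with the genes of the other subfamilies compared. Of all windows of 150 bases, the length of a read, 19.5% in the Ugt2b5 transcript and 19.2% in the Ugt2b38 transcript occurred unchanged in the other of the pair. No other chromosome 5 or 15 gene of the 10 shared a window of that length with another gene. Reads of full length could thus have been split between Ugt2b5 and Ugt2b38, and the counts of Ugt2b38 are uncertain to that extent. Shorter stretches were shared more widely. Of windows of 50 bases, 41.7% in Ugt2b5, 18.3% in Ugt2b37 and 9.38% in Ugt3a1 also occurred in another gene, Ugt3a2 among them for Ugt3a1. Reads shortened by trimming could therefore be less specific for these genes as well.

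The stretch just before the transcription start was close between some of the copies only, and 8 of the 10 genes hold the same kind of element there. It reads GTTA, any 4 bases, then TTAAC, and it was looked for on both strands of the 250 bases upstream of the start after these sequences had been read. The element was present before 8 of the 10 genes (all 7 Ugt2b genes and Ugt3a1), before none of the other UGT genes with a window, and before 0.200% of all 27025 genes with a window. Ugt3a2 and Ugt1a6b had no window. The pattern was set from these same sequences, so the count beside this share is only a description. Ugt2b5, Ugt2b37 and Ugt2b38 are close copies here and not independent cases. The 110 bases that hold it are printed below 5′ to 3′ on the strand of the gene (RefSeq windows, GRCm38.p6, whose starts can differ from those of the gene models above), in lower case with the element in capitals.
Ugt2b5 (chr5:87140341-87140450, minus strand): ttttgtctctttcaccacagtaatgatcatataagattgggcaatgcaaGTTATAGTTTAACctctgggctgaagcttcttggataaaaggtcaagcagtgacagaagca
Ugt2b37 (chr5:87254789-87254898, minus strand): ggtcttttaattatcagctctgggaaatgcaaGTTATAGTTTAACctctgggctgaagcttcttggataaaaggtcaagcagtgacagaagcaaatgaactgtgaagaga
Ugt2b38 (chr5:87424204-87424313, minus strand): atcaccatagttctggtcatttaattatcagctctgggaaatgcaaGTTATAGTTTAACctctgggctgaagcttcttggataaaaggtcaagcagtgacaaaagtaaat
Ugt2b36 (chr5:87092556-87092665, minus strand): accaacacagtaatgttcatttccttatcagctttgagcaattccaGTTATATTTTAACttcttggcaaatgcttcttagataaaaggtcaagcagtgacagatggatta
Ugt2b35 (chr5:87000750-87000859, plus strand): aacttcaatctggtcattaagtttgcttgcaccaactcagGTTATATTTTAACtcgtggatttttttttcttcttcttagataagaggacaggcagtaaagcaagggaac
Ugt2b34 (chr5:86906938-86907047, minus strand): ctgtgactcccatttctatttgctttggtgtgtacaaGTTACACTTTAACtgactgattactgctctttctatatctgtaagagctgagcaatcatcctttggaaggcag
Ugt2b1 (chr5:86926504-86926613, minus strand): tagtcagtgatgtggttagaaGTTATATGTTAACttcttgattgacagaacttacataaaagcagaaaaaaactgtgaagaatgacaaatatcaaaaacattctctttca
Ugt3a1 (chr15:9279659-9279768, plus strand): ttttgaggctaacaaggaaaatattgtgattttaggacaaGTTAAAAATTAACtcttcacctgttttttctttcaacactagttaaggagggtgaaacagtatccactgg

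Ugt2b5, Ugt2b37 and Ugt2b38 carried the identical element GTTATAGTTTAAC, beginning 61, 78 and 64 bases before the start that RefSeq gives. Ugt2b35 and Ugt2b36 shared the version GTTATATTTTAAC. Over the full 250 bases upstream, Ugt2b37 and Ugt2b38 were 84.8% identical and Ugt2b5 and Ugt2b38 81.5%, and Ugt2b35 and Ugt2b36 49.6%. Ugt2b1 and Ugt2b34 were 45.3% to 48.9% identical to the other Ugt2b genes there, no more than Ugt1a1 and Ugt2b38 (49.4%). The windows of Ugt1a1 and Ugt2a3 did not hold these letters. A match is a property of the sequence and not a measured site.

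All 10 genes had a lower mean in ABpIF/+ than in Ctrl livers, and 8 of them were called (adjusted p under 0.01 in edgeR's quasi-likelihood test and a fold change of at least 2 in either direction), all in the lower direction. The mean of every gene was lower in ABpIF/F than in Ctrl livers too, and 7 of the 10 were called. Of all 27179 genes tested, 5.35% were called lower and 4.69% higher in ABpIF/+ against Ctrl, and 2.38% lower and 4.55% higher in ABpIF/F against Ctrl. Among the 12316 genes averaging 1 CPM or more over the 15 mice, 9.39% and 5.04% were called lower. Ugt2b37 and Ugt2b38 are among these genes through their Ctrl level alone, so the count of UGT genes beside this share is only a description. The median log2 fold change of the 10 genes was -1.61 in ABpIF/+ and -1.50 in ABpIF/F mice, where that of the genes averaging 1 CPM or more was 0.02 and -0.00077. Each of the 10 genes was lower in every ABpIF/+ mouse than in any Ctrl mouse, an order found for 15.8% of the genes averaging 1 CPM or more. For 8 of the 10 every ABpIF/F mouse also lay below every Ctrl mouse, which held for 16.5% of those genes.

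**Figure D1:**
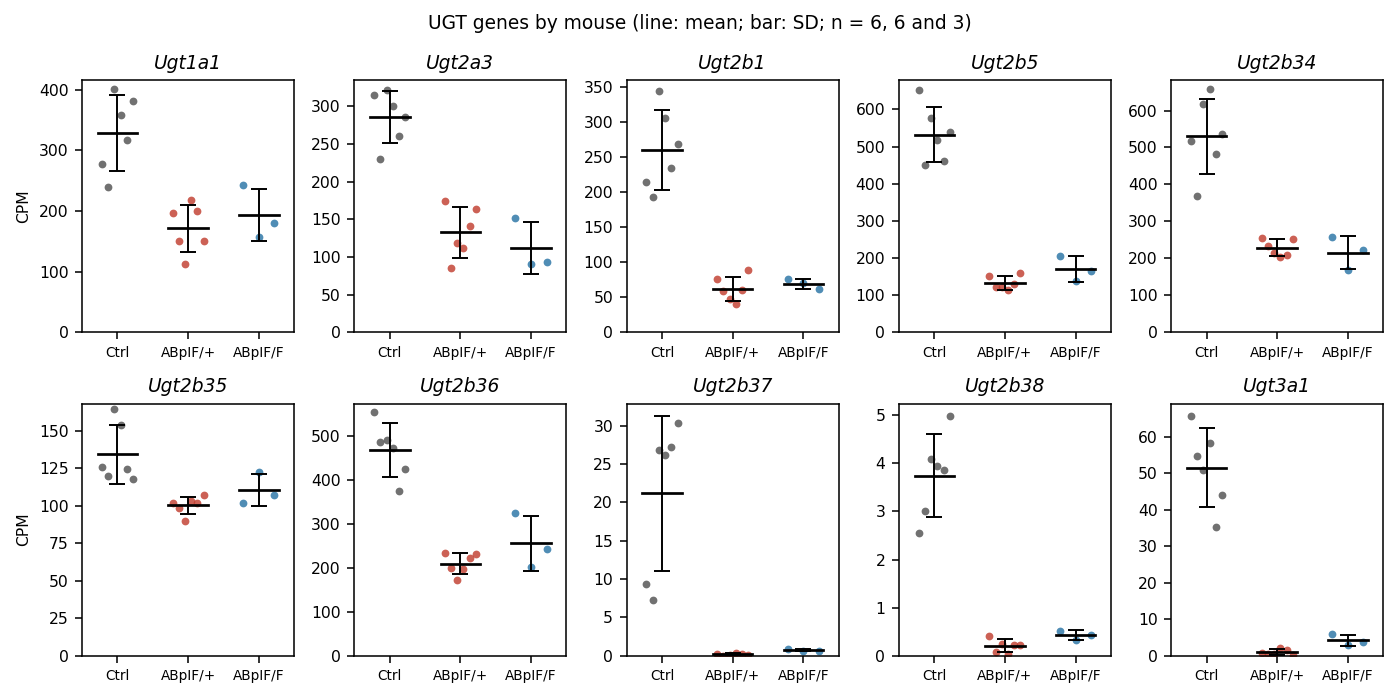
CPM of the 10 UGT genes in each mouse (points), with group means (lines) and SD (bars), on linear axes that start at 0. Ugt2b37, Ugt2b38 and Ugt3a1 lie close to 0 in the 6 ABpIF/+ mice, and Ugt2b35 keeps most of its Ctrl level.

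Ugt2b37, Ugt3a1 and Ugt2b38 fell the most. Ugt2b37, of the steroid-conjugating subfamily, was at 7.26, 26.5 and 30.3 CPM (lowest, median and highest) in the 6 Ctrl mice, at 0, 0.155 and 0.348 in the ABpIF/+ mice and at 0.914 in BG183, 0.609 in BG38 and 0.607 in BG90. Its reads numbered 195 to 877 in a Ctrl library and 0 to 9 in an ABpIF/+ library, and the 0, in BG30, allows up to 0.102 CPM. The 3 groups did not overlap, and the ABpIF/F mice lay between the other groups. The log2 fold change was -6.98 ± 0.53 (SE, adjusted p = 1.45e-07) in ABpIF/+ and -4.89 ± 0.60 (SE, adjusted p = 4.06e-05) in ABpIF/F against Ctrl. Among the Ctrl mice this gene stood at 9.35 CPM in BG3 and 7.26 in malpa387, and at 26.1 to 30.3 in the other 4. BG3 alone still exceeded every ABpIF/F mouse, and with BG3 as the sole Ctrl mouse the log2 fold changes were -5.80 and -3.75. With the clock gene score in the model the ABpIF/F value was -3.22 (adjusted p = 8.90e-04).

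Ugt3a1 was at 35.1, 52.8 and 65.8 CPM (lowest, median and highest) in Ctrl, at 0.258, 0.562 and 2.205 in ABpIF/+ and at 5.87 in BG183, 2.80 in BG38 and 3.82 in BG90. As for Ugt2b37, the 3 groups did not overlap and the ABpIF/F mice were intermediate. The ABpIF/+ mean was 1.78% and the ABpIF/F mean 8.10% of the Ctrl mean, and the log2 fold changes were -5.82 ± 0.44 (SE, adjusted p = 2.32e-07) and -3.63 ± 0.50 (SE, adjusted p = 1.66e-04). Ugt2b38 was the scarcest of the 10 genes, with 2.54, 3.90 and 5.00 CPM in Ctrl, 0.0387, 0.224 and 0.416 in ABpIF/+ and 0.522 in BG183, 0.332 in BG38 and 0.429 in BG90. No ABpIF mouse reached the lowest Ctrl mouse, BG3, and the 2 ABpIF groups overlapped. Its log2 fold changes were -4.17 ± 0.36 (SE, adjusted p = 1.10e-08) in ABpIF/+ and -3.12 ± 0.44 (SE, adjusted p = 1.99e-05) in ABpIF/F mice. Because part of the Ugt2b38 transcript matches Ugt2b5, its counts were also set against those of Ugt2b5 in the same library: they came to 0.390% to 0.928% of the Ugt2b5 counts in Ctrl, 0.0340% to 0.275% in ABpIF/+ and 0.2404% to 0.2599% in ABpIF/F mice.

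Ugt2b1 and Ugt2b5 were 4.21-fold and 4.01-fold lower in ABpIF/+ than in Ctrl mice by their mean CPM. Ugt2b5 was at 450.4, 529 and 652 CPM (lowest, median and highest) in Ctrl, at 114, 126 and 161 in ABpIF/+ and at 206 in BG183, 138 in BG38 and 165 in BG90. Its log2 fold changes were -2.00 ± 0.14 (SE, adjusted p = 4.52e-10) and -1.65 ± 0.18 (SE, adjusted p = 7.07e-07), and the highest ABpIF mouse, BG183, was well under the lowest Ctrl mouse. Ugt2b1 was at 192, 251 and 344 CPM in Ctrl, at 40.5, 59.3 and 88.3 in ABpIF/+ and at 75.1 in BG183, 70.3 in BG38 and 61.2 in BG90. The 3 ABpIF/F values all fell inside the ABpIF/+ range, and the log2 fold changes against Ctrl were -2.07 ± 0.18 (SE, adjusted p = 1.10e-08) and -1.91 ± 0.23 (SE, adjusted p = 3.40e-06).

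Ugt2b36, Ugt2b34 and Ugt2a3 were lower by a little over a log2 unit in ABpIF/+ mice. Ugt2b36 was at 375, 481 and 555 CPM (lowest, median and highest) in Ctrl, at 172, 211 and 234 in ABpIF/+ and at 325 in BG183, 202 in BG38 and 242 in BG90. It was called in ABpIF/+ (-1.16 ± 0.14, SE, adjusted p = 8.66e-07) but its log2 fold change in ABpIF/F, -0.87 ± 0.17 (SE, adjusted p = 8.46e-04), stayed under the fold threshold, which BG183 decided, since without that mouse it was -1.08 (adjusted p = 2.08e-04). Ugt2b34 was at 368, 527 and 658 CPM in Ctrl, at 203, 224 and 255 in ABpIF/+ and at 257 in BG183, 167 in BG38 and 221 in BG90, with log2 fold changes of -1.22 ± 0.15 (SE, adjusted p = 1.06e-06) and -1.30 ± 0.19 (SE, adjusted p = 2.72e-05). Ugt2a3, whose enzyme is known for conjugating bile acids, was at 231, 293 and 322 CPM in Ctrl, at 85.7, 130.0 and 174 in ABpIF/+ and at 152 in BG183, 90.3 in BG38 and 92.9 in BG90. Its log2 fold changes were -1.11 ± 0.17 (SE, adjusted p = 2.27e-05) and -1.36 ± 0.22 (SE, adjusted p = 8.57e-05). Ugt2a3 and Ugt2b34 were the only genes of the 10 with a lower mean in ABpIF/F than in ABpIF/+ mice. They were also the genes whose ABpIF/F call did not hold when the clock gene score entered the model, with log2 fold changes of -0.96 (adjusted p = 0.0540) and -0.84 (adjusted p = 0.0553).

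Ugt1a1 and Ugt2b35 were the genes that passed no call against Ctrl. Ugt1a1, the bilirubin-conjugating enzyme, was at 239, 338 and 401 CPM (lowest, median and highest) in Ctrl, at 113, 174 and 217 in ABpIF/+ and at 242 in BG183, 158 in BG38 and 180.3 in BG90. Every ABpIF/+ mouse was below every Ctrl mouse, whereas BG183 overlapped the Ctrl range. The log2 fold change was -0.94 ± 0.17 (SE, adjusted p = 1.39e-04) in ABpIF/+, just short of the fold threshold, and -0.77 ± 0.21 (SE, adjusted p = 0.0118) in ABpIF/F mice. With the clock gene score in the model, a fit that leans on malpa387, the ABpIF/F value was -0.19 (adjusted p = 0.994). The ABpIF/+ value passed the threshold without malpa387 (-1.02), without BG175 (-1.01) and without BG40 (-1.02). Ugt2b35 was at 118, 125 and 164 CPM in Ctrl, at 89.9, 102 and 107 in ABpIF/+ and at 102 in BG183, 123 in BG38 and 107 in BG90. Its ABpIF/+ mean was 74.7% of the Ctrl mean, the highest share of the 10 genes, with a log2 fold change of -0.42 ± 0.11 (SE, adjusted p = 0.00558). In ABpIF/F mice it was -0.28 ± 0.14 (SE, adjusted p = 0.189), and BG38 lay inside the Ctrl range.

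**Figure D2:**
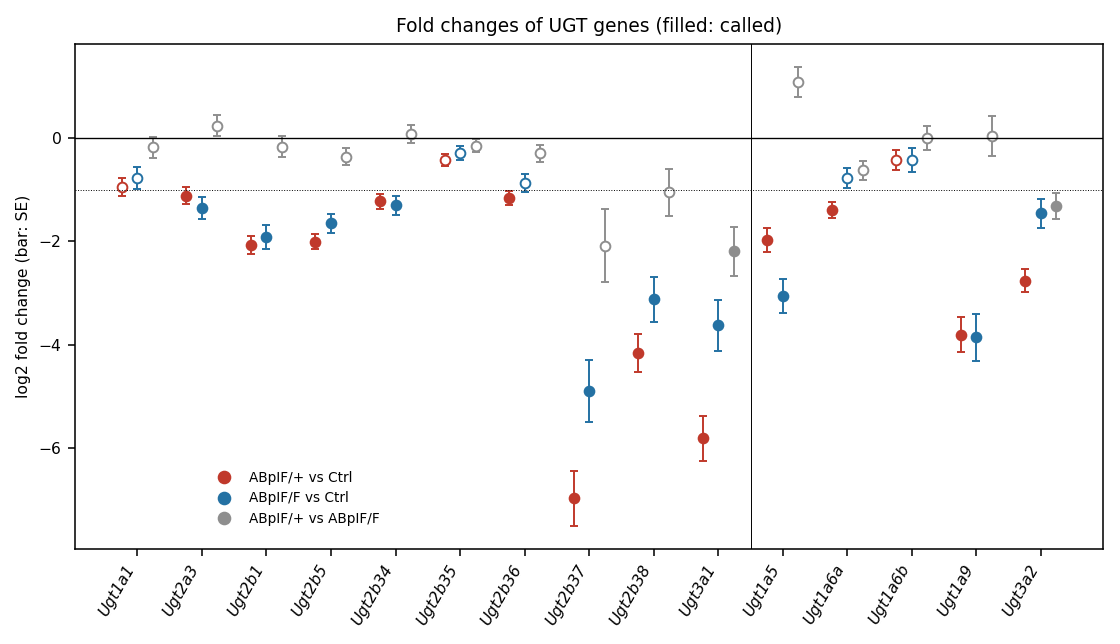
Log2 fold changes (points) with SE (bars) of the 10 UGT genes, left of the vertical line, and of the 5 further UGT genes averaging 1 CPM or more, right of it. Filled points were called, and the dotted line marks a log2 fold change of -1. Among the 10 genes the red ABpIF/+ values reach from -0.42 for Ugt2b35 to -6.98 for Ugt2b37.

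With BG3 as the sole Ctrl mouse, its spread assumed to be that of the other groups, 7 of the 10 genes were called in ABpIF/+ and 4 of the 10 in ABpIF/F mice. The 10 log2 fold changes stayed negative in both comparisons. The calls that were lost were that of Ugt2a3 in ABpIF/+ (-1.25, adjusted p = 0.0260) and those of Ugt2a3 (-1.53, adjusted p = 0.0158), Ugt2b38 (-2.60, adjusted p = 0.0641) and Ugt3a1 (-4.01, adjusted p = 0.0217) in ABpIF/F mice.

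Between the ABpIF groups the differences were small for most of the 10 genes. The ABpIF/F mean lay between those of ABpIF/+ and Ctrl for 8 of the 10 genes, all but Ugt2a3 and Ugt2b34. How often the means of other genes take this order was not determined, so the count is only a description. In Ugt2b37 and Ugt3a1 every ABpIF/F mouse was above every ABpIF/+ mouse. ABpIF/+ mice lying below all ABpIF/F mice was seen for 14.9% of the genes averaging 1 CPM or more. Of the 10 genes only Ugt3a1 was called, lower in ABpIF/+ than in ABpIF/F mice (log2 fold change -2.19 ± 0.48, SE, adjusted p = 0.00538), against 5.49% of all genes tested called lower and 1.76% called higher (8.50% lower among genes averaging 1 CPM or more). That call was lost without BG175 (adjusted p = 0.0150), BG30 (0.0101), BG31 (0.0126), BG183 (0.0312) or BG90 (0.0147), in a fit of these 2 groups alone (0.0163, with a log2 fold change of -2.20) and once the clock gene score entered the model (0.111, with -2.26). Its log2 fold change was -1.86 or lower when a mouse was left out. Ugt2b37 differed by -2.08 ± 0.70 (SE, adjusted p = 0.0547) and Ugt2b38 by -1.04 ± 0.45 (SE, adjusted p = 0.128), neither of them called, and DESeq2 called Ugt2b37 (adjusted p = 0.00473). The remaining 7 genes had log2 fold changes between -0.35 (Ugt2b5) and 0.25 (Ugt2a3), with SE of 0.13 to 0.21. None of these 7 was called, and with 3 ABpIF/F mice differences of that size were not detectable beyond the spread between mice.

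Nearest relatives within the family did not all fall by the same amount. In a comparison added after the values had been seen, to set genes side by side within one library, the log2 ratio of each gene but Ugt1a1, whose exons are shared with its relatives, to its nearest relative by coding sequence was taken in every mouse, which gave 7 pairs and 21 comparisons tested by exact two-sided permutation over mice, with Benjamini-Hochberg adjustment over the 21. For 6 mice against 6 the smallest p such a test can give is 0.00216 and for 6 against 3 it is 0.0238. From Ctrl to ABpIF/+ the ratio shifted without any overlap between the mice in 6 of the 7 pairs, each at the smallest p (adjusted p = 0.00758, exact permutation test). The pairs are 68.1% to 97.0% identical in coding sequence and reuse Ugt2b5, Ugt2b34 and Ugt2b36, so they are not independent cases. How often pairs of other genes separate in this way was not determined, so the count is only a description. Ugt2b37 changed by -4.52 relative to Ugt2b5, as the log2 ratio went from -4.83 ± 0.93 (SD, n = 6) to -9.35 ± 0.96 (SD, n = 6). Ugt2b38 changed by -1.95 relative to Ugt2b5 and Ugt3a1 by -3.20 relative to Ugt3a2. The size of the Ugt2b37 and Ugt2b38 shifts depends on the prior count, since both genes had few reads in ABpIF/+ mice. With a prior count of 5, an alternative added after seeing the data, they were -3.87 and -1.43 (p = 0.00216 each, exact permutation test). Ugt2b1 changed by -0.89 relative to Ugt2b34. In the other direction, Ugt2b35 gained 0.75 on its neighbour Ugt2b36, and Ugt2b36 gained 0.84 on its other neighbour Ugt2b5. For Ugt2a3 and Ugt2b34 the ratio differed by 0.06 with overlapping mice (p = 0.740, exact permutation test).

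From Ctrl to ABpIF/F 4 of the ratios shifted without overlap, those of Ugt2b37 to Ugt2b5 (-2.94), Ugt3a1 to Ugt3a2 (-2.10), Ugt2b38 to Ugt2b5 (-1.27) and Ugt2b36 to Ugt2b5 (0.77), each at the smallest p (adjusted p = 0.0455, exact permutation test). The shifts of Ugt2b1 to Ugt2b34 (-0.59, adjusted p = 0.0833, exact permutation test) and of Ugt2b35 to Ugt2b36 (0.61, adjusted p = 0.133, exact permutation test) did not pass the adjustment. Between the ABpIF groups only the ratio of Ugt2b37 to Ugt2b5 separated all mice (-1.58, adjusted p = 0.0455, exact permutation test). The ABpIF/+ and ABpIF/F comparisons against Ctrl share the Ctrl mice.

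**Figure D3:**
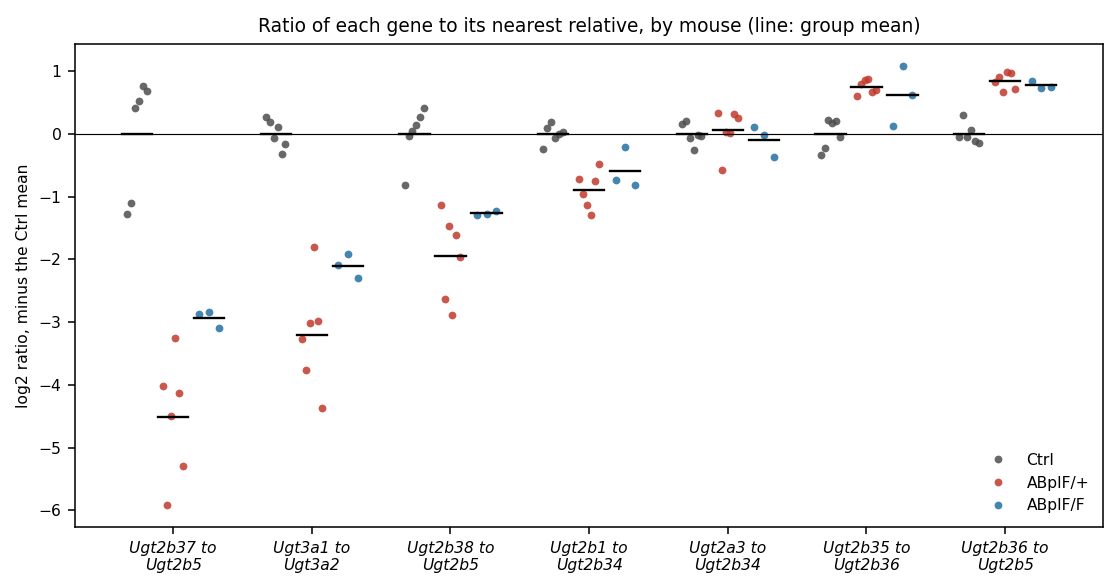
Log2 ratio of each gene to its nearest relative by coding sequence in each mouse (points), relative to the Ctrl mean of the pair, with group means (lines). The ABpIF/+ mice lie below all Ctrl mice for Ugt2b37, Ugt3a1, Ugt2b38 and Ugt2b1, and above them for Ugt2b35 and Ugt2b36.

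Levels of different genes were compared per length, as CPM per kilobase of exon sequence that belongs to no other gene. In Ctrl livers the order of the 10 genes was Ugt1a1 at 361 ± 68.7 (SD, n = 6), Ugt2b5 at 287 ± 40.5, Ugt2b36 at 227 ± 29.9, Ugt2a3 at 135 ± 16.5, Ugt2b34 at 123 ± 23.8, Ugt2b1 at 101 ± 22.3, Ugt2b35 at 40.04 ± 5.85, Ugt3a1 at 19.3 ± 4.06, Ugt2b37 at 11.2 ± 5.33 and Ugt2b38 at 1.98 ± 0.456 CPM per kilobase. The place of Ugt1a1 depends on its short length of 913 bases, which assumes that reads in the shared exons were not assigned. Ugt1a2, with 59.3% of its exon bases shared at the same locus, had at most 17 reads in any library. Reads of the shared exons were thus not counted for every gene that holds them. Over all of its 2224 exon bases, an alternative added after seeing the data, it was at 148 ± 28.2 and came after Ugt2b5 and Ugt2b36, and in BG3 Ugt2b5 (351) exceeded Ugt1a1 (305). Ugt2a3 and Ugt2b34, and likewise Ugt2b34 and Ugt2b1, were closer to each other than the SD of the pair. The length of Ugt2b34, 4312 bases, joins the exons of 2 transcripts, and the transcript used for the windows has 3051. The level of Ugt2b34, and with it its place after Ugt2a3, depends on that length. Summed over all UGT genes but Ugt8a, the Ctrl livers held 1631 ± 192 CPM per kilobase, the ABpIF/+ livers 602 ± 80.0 and the ABpIF/F livers 677 ± 142 (SD, n = 6, 6 and 3), so that 36.9% and 41.5% of the Ctrl pool remained. The pool of every ABpIF mouse was below that of every Ctrl mouse, with 1351 to 1853 in Ctrl, 472 to 681 in ABpIF/+ and 559 to 835 in ABpIF/F mice. Its make-up shifted as well. Ugt1a1 supplied 22.0% ± 2.61 of the pool in Ctrl, 30.9% ± 4.35 in ABpIF/+ and 31.2% ± 0.481 in ABpIF/F mice, or 11.4% ± 1.60, 16.7% ± 3.13 and 16.4% ± 0.257 with all exon bases as the length. Ugt2b5 supplied 17.6% ± 1.81, 12.0% ± 1.75 and 13.5% ± 0.372. Ugt2b35, a minor transcript in Ctrl at 2.46% ± 0.245, came to 5.02% ± 0.483 in ABpIF/+ and 5.06% ± 1.45 in ABpIF/F mice.

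**Figure D4:**
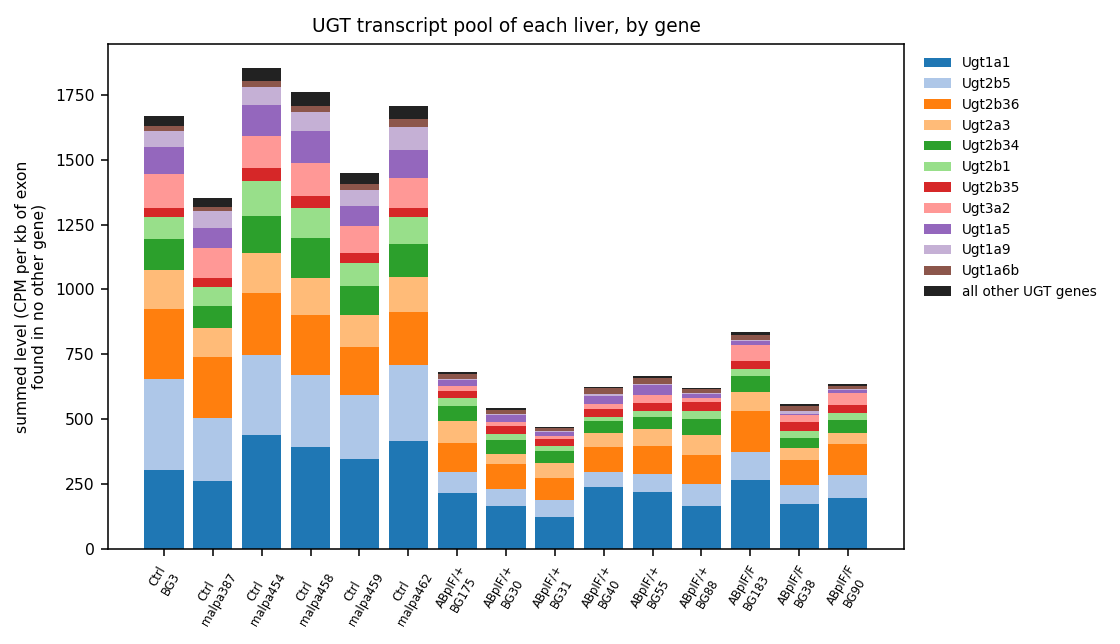
Summed level of the UGT genes in each mouse, as CPM per kilobase of exon found in no other gene, stacked by gene. The 6 Ctrl bars end between 1351 and 1853, and the highest ABpIF bar, that of BG183, ends at 835.

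Among the 11 further UGT genes of the table, Ugt3a2, Ugt1a9, Ugt1a5 and Ugt1a6a were called lower in ABpIF/+ mice and the first 3 of them also in ABpIF/F mice. Of all genes tested, 5.35% and 2.38% were called lower in these comparisons, and the counts of so short a list are only a description. Ugt3a2, the neighbour and close relative of Ugt3a1, was at 322, 375 and 400.0 CPM (lowest, median and highest) in Ctrl, at 32.5, 49.5 and 93.6 in ABpIF/+ and at 186 in BG183, 78.5 in BG38 and 139.8 in BG90. Its log2 fold changes were -2.76 ± 0.23 (SE, adjusted p = 2.54e-08) and -1.46 ± 0.28 (SE, adjusted p = 9.09e-04), and it was called lower in ABpIF/+ than in ABpIF/F mice as well (log2 fold change -1.30 ± 0.25, SE, adjusted p = 0.00113). Ugt1a9 was at 51.0, 58.6 and 80.5 CPM in Ctrl, at 1.81, 5.07 and 5.56 in ABpIF/+ and at 3.10 in BG183, 7.67 in BG38 and 1.75 in BG90, with log2 fold changes of -3.81 and -3.86 and a difference between the ABpIF groups of 0.05 ± 0.39 (SE). Ugt1a5 was at 67.9, 93.7 and 108 CPM in Ctrl, at 15.4, 22.8 and 32.6 in ABpIF/+ and at 14.4 in BG183, 5.40 in BG38 and 12.5 in BG90. The ABpIF/F mice were the lowest for this gene, each below every ABpIF/+ mouse, an order whose share among other genes was not determined. Its log2 fold changes against Ctrl were -1.97 in ABpIF/+ and -3.06 in ABpIF/F mice. The difference between the ABpIF groups of 1.09 ± 0.30 (SE, adjusted p = 0.0161) was not called. Ugt1a6a had -1.38 ± 0.16 (SE, adjusted p = 5.12e-07) in ABpIF/+ and -0.76 ± 0.19 (SE, adjusted p = 0.00724) in ABpIF/F mice.

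Ugt1a6b, which encodes a phenol-conjugating form like Ugt1a6a, had log2 fold changes of -0.42 ± 0.19 (SE, adjusted p = 0.125) and -0.43 ± 0.23 (SE, adjusted p = 0.273) and was not called. Since the Ugt1a genes share their later exons and differ in the first, these values describe transcripts that start at different first exons of one locus, with Ugt1a9 at 4.34 CPM in ABpIF/+ against 61.2 in Ctrl and Ugt1a1 at 171 against 329. Ugt1a2, Ugt1a7c, Ugt1a10 and Ugt8a had at most 48 reads in any library and were not called, and Ugt2a1 and Ugt2a2 had 0 counts in all 15 mice. Ugt8a encodes the galactosyltransferase of myelin lipids and does not act on drugs or bilirubin.

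The expressed genes beside the chromosome 5 cluster did not all share its direction. Within 500 kilobases on either side lie 18 protein-coding genes that are not UGTs, a window set after the values of the cluster were known, and 4 of them had a mean of at least 1 CPM. Ythdc1, which encodes a reader of methylated RNA, had log2 fold changes of 0.15 in ABpIF/+ (adjusted p = 0.352) and -0.03 in ABpIF/F mice (adjusted p = 1.00). On the other side lie 3 sulfotransferase genes, whose enzymes conjugate small molecules with sulfate. Sult1e1, the estrogen sulfotransferase, had 0 to 38 reads in a Ctrl library, 534 to 4334 in an ABpIF/+ library and 176 to 641 in an ABpIF/F library, and rose by 7.57 log2 units in ABpIF/+ (adjusted p = 8.20e-06) and by 4.64 in ABpIF/F mice (adjusted p = 0.00112). Sult1d1 had 0.61 and -0.60 and was not called, and Sult1b1 had -0.81 in ABpIF/+ and fell by 1.51 log2 units in ABpIF/F mice (adjusted p = 3.02e-05).

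The genes that supply UDP-glucuronate, the sugar donor, were called lower in 2 of 10 cases in both ABpIF groups, Ugdh and Entpd5, beside 9.39% and 5.04% of the genes averaging 1 CPM or more, so the count is no result about the list. Ugdh encodes the dehydrogenase that makes UDP-glucuronate from UDP-glucose, and its mean went from 129 ± 28.4 CPM (SD, n = 6) in Ctrl to 32.3 ± 6.46 (SD, n = 6) in ABpIF/+ and 59.6 ± 23.6 (SD, n = 3) in ABpIF/F mice. Its log2 fold changes were -2.00 ± 0.18 (SE, adjusted p = 6.37e-08) and -1.12 ± 0.23 (SE, adjusted p = 0.00143). Entpd5, an endoplasmic reticulum nucleotidase that removes the UDP released by glucosyl transfer, had -1.53 ± 0.13 (SE, adjusted p = 7.61e-09) and -1.35 ± 0.17 (SE, adjusted p = 3.89e-06). None of the 10 genes was called higher. Entpd4, a related nucleotidase, had at most 2 reads in any library. The most abundant of the list, Ugp2, which makes UDP-glucose, had 0.34 ± 0.12 (SE, adjusted p = 0.0392) in ABpIF/+ and Pgm1, the phosphoglucomutase, 0.00 ± 0.12 (SE, adjusted p = 1.00). The median of the list was -0.20 in ABpIF/+ and -0.48 in ABpIF/F mice.

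Of 8 genes that cleave glucuronides or use glucuronate, 2 were called higher and 3 lower in ABpIF/+ mice, and 1 higher and 3 lower in ABpIF/F mice. Of all genes tested, 4.69% were called higher and 5.35% lower in ABpIF/+, and 4.55% higher and 2.38% lower in ABpIF/F mice. The counts of so short a list are only a description. Gusb, the lysosomal beta-glucuronidase that removes the glucuronic acid again, went from 24.7 ± 3.38 CPM in Ctrl to 50.4 ± 5.72 in ABpIF/+ and 34.4 ± 1.54 in ABpIF/F mice, with log2 fold changes of 1.03 ± 0.11 (SE, adjusted p = 1.82e-07) and 0.47 ± 0.13 (SE, adjusted p = 0.0122), of which the first was called. Miox, the myo-inositol oxygenase that yields free glucuronate and is known mainly from the kidney, had 0 to 10 reads in a Ctrl library, 570 to 772 in an ABpIF/+ library and 282 to 475 in an ABpIF/F library. It rose by 7.33 ± 0.29 log2 units (SE, adjusted p = 2.04e-13) in ABpIF/+ and by 6.34 ± 0.31 (SE, adjusted p = 1.31e-11) in ABpIF/F mice. Rgn and Gulo, which encode the last enzymes on the way from glucuronate to ascorbate in the mouse, were called lower in both groups, with log2 fold changes of -2.51 and -2.26 for Rgn and of -1.18 and -1.20 for Gulo. The third gene called lower in both was Cryl1, the gulonate dehydrogenase, at -1.06 and -1.26. The median of the list was -0.27 in ABpIF/+ and -0.70 in ABpIF/F mice.

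Of 8 transporters known to carry glucuronides or their parent compounds, the exporters Abcc2, Abcc3 and Abcg2 were not called in either group, with Abcc2, the canalicular exporter of bilirubin glucuronides, at -0.23 ± 0.22 (SE, adjusted p = 0.561) and -0.46 ± 0.27 (SE, adjusted p = 0.324). Abcc4 was called higher in ABpIF/+ mice (1.66 ± 0.40, SE, adjusted p = 0.00603). The carriers for uptake were mostly called lower, beside 9.39% (ABpIF/+) and 5.04% (ABpIF/F) of the genes averaging 1 CPM or more. Slco1b2, the main hepatocyte importer of organic anions, went from 982 ± 188 CPM in Ctrl to 115 ± 39.0 in ABpIF/+ and 175 ± 56.9 in ABpIF/F mice (-3.10 and -2.49 on the log2 scale). Slco2b1 had -1.97 and -1.61 and Slco1a1 -5.15 and -3.77, all called. Slco1a4 had 0.25 ± 0.21 (SE, not called) in ABpIF/+ and was called lower in ABpIF/F mice alone (-1.40 ± 0.28, SE, adjusted p = 0.00135), and it was called higher in ABpIF/+ than in ABpIF/F mice (1.65 ± 0.28, SE, adjusted p = 4.27e-04). None of the 4 genes from heme to bilirubin (Hmox1, Hmox2, Blvra and Blvrb) was called against Ctrl, and Hmox1, the inducible heme oxygenase, had 1.04 ± 0.30 (SE, adjusted p = 0.02003) and 1.05 ± 0.36 (SE, adjusted p = 0.0616).

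Of 18 transcription factors and receptors known to regulate UGT genes, none was called in ABpIF/+ mice, and 2 were called lower in ABpIF/F mice, counts that lie near the 9.39% and 5.04% called lower among genes averaging 1 CPM or more. These 2 were Nr1i3, the receptor CAR that senses drugs and bilirubin, at -1.64 ± 0.25 (SE, adjusted p = 6.53e-05), and Ppara, the fatty acid receptor, at -1.66 ± 0.28 (SE, adjusted p = 2.09e-04). Both were called higher in ABpIF/+ than in ABpIF/F mice, with a log2 fold change of 1.06 for each. In ABpIF/+ mice Nr1i3 had -0.57 ± 0.19 (SE, adjusted p = 0.0260) and Ppara -0.60 ± 0.21 (SE, adjusted p = 0.0389). The most abundant of the list, Hnf4a, a factor of hepatocyte identity, and Rxra, the partner of several nuclear receptors, had 0.51 ± 0.14 (SE, adjusted p = 0.00789) and 0.14 ± 0.15 (SE, adjusted p = 0.662) in ABpIF/+ mice. The lowest value of the list in ABpIF/+ mice was that of Ahr, the dioxin receptor (-0.76 ± 0.15, SE, adjusted p = 4.54e-04), and the highest that of Foxa3 (0.90 ± 0.26, SE, adjusted p = 0.0186). The RNA level of a receptor does not measure its activity.

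**Figure D5:**
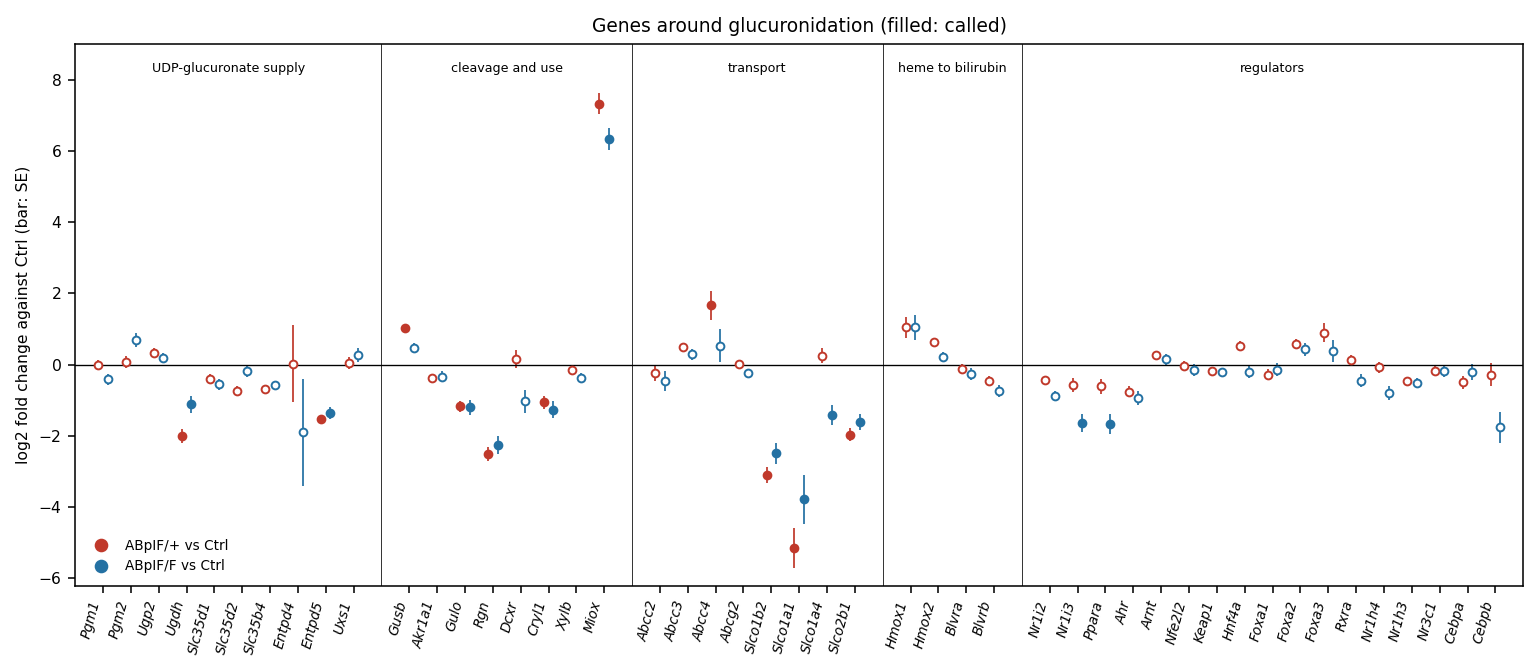
Log2 fold changes against Ctrl (points) with SE (bars) of the genes of UDP-glucuronate supply, glucuronide cleavage and glucuronate use, transport, heme breakdown and UGT regulation, in ABpIF/+ (red) and ABpIF/F (blue) mice, with filled points for called genes and 1 of the 18 regulators not drawn. Miox stands at 7.33 and 6.34, and Slco1a1 has the lowest values at -5.15 and -3.77.

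Cell type markers and clock genes moved with the groups. Their counts stand beside 5.35% of all genes tested called lower and 4.69% higher in ABpIF/+ mice. In ABpIF/F mice these shares were 2.38% and 4.55%. Where only 1 or 2 genes of a list were called, the count is no result about that list. Of 9 markers of pericentral hepatocytes, the cells around the central vein that make Cyp2e1 and Glul, 8 were called lower in ABpIF/+ and 7 in ABpIF/F mice, and their summed level was 8722 to 12249 CPM in Ctrl, 2475 to 5418 in ABpIF/+ and 883 to 2465 in ABpIF/F mice. Of 7 periportal markers 2 were called higher and 1 lower in ABpIF/+, and 1 higher and 3 lower in ABpIF/F mice (6752 to 9708, 6752 to 13577 and 2280.2 to 4372 CPM). Of 9 general hepatocyte markers only Trf was called, higher in both groups. Of 8 stellate cell and fibroblast markers 7 were called lower in ABpIF/+ and 0 in ABpIF/F mice (172 to 239, 40.1 to 86.6 and 156 to 269.5 CPM), and of 10 leukocyte markers 4 were lower in ABpIF/+ and 1 higher in ABpIF/F mice (142 to 194, 48.7 to 88.6 and 123 to 265 CPM). Of 7 endothelial markers 2 were lower in ABpIF/+ and 1 higher in ABpIF/F mice (153 to 228, 75.04 to 173 and 177 to 248 CPM). Of 8 cholangiocyte markers 2 were called higher and 1 lower in ABpIF/+ and 6 higher in ABpIF/F mice (49.4 to 87.9, 54.7 to 176 and 236 to 1195 CPM). Of 15 clock genes 3 were called higher in ABpIF/+ and 4 lower in ABpIF/F mice. The part of these markers in the UGT levels was not tested.

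Across the 15 mice, the genes outside the family with a log2 CPM profile closest to that of each UGT gene were sought among 9527 genes averaging 5 CPM or more, and the 2 with the highest Pearson r, or 1 of them for Ugt2b35, are given as a description, since the points share the 3 groups. Ugt3a1 was closest to Adh4, an alcohol dehydrogenase, and Etfdh, a mitochondrial electron carrier (r = 0.985 and 0.981), and Ugt2b37 to Gabbr2 and Lrit1 (r = 0.984 and 0.984). Ugt2b38 was closest to Pxmp4 and Acadsb (r = 0.971 and 0.965), Ugt2b5 to Pmpcb and Abhd3 (r = 0.989 and 0.988) and Ugt2b1 to Aspa and Agmo (r = 0.979 and 0.977). Ugt2b36 was closest to Pon1, the paraoxonase, and Maob, a monoamine oxidase (r = 0.982 and 0.982), Ugt2b34 to Dglucy and Ptgr2 (r = 0.984 and 0.983) and Ugt2a3 to Mrps5 and Immt (r = 0.962 and 0.960). Ugt1a1 was closest to Prpf8 and Ireb2 (r = 0.956 and 0.953), and Ugt2b35, the gene that changed least, had Dop1b in second place (r = 0.892).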

How the data were processed

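Liver RNA of 15 mice was sequenced by the authors after Trizol extraction and a stranded mRNA library kit, and the deposited values are raw counts per gene and mouse, made by aligning paired-end reads to mm10 with HISAT2 (version 2.21 in the processing notes) and counting with featureCounts (2.0.8). The annotation, the strand setting and the handling of reads that match several genes were not given in the sources used here. The series lists 23 samples for the 15 mice, with 8 mice named by 2 samples and 7 by 1, and the counts hold 1 column per mouse. The table also holds columns of the authors' own comparisons (fold changes and p-values), which were not used. Groups came from the labels, which write BRAF +/+ for the ABpI mice and BRAF wt for Ctrl where the design text gives BrafCA/+ for the ABpI mice, and the design text was followed.

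Counts were fitted for all 27179 genes and 3 groups with edgeR (4.0.16, R 4.3.3; TMM, robust quasi-likelihood F-test in the form used before version 4). Adjusted p is by Benjamini-Hochberg over all genes, and calls needed this value under 0.01 together with a log2 fold change of 1 or more in size. CPM is after TMM scaling, and log2 CPM used a prior count of 2. The SE is the absolute log2 fold change over the square root of F. The p-values measure the spread between mice. Ratios between related genes were tested by exact permutation (SciPy 1.17.1). Gene models are GENCODE M21 (GRCm38), and upstream sequences are those of RefSeq (GRCm38.p6). DESeq2 (1.42.0) was an alternative.

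The 10 genes and all lists were chosen with earlier results of these data known. Named were all UGT genes and, of each pathway list, up to 4 called genes with the smallest adjusted p and the 2 most abundant. Hmox1, Pgm1, Nr1i3, Ahr, Foxa3, Entpd4, Abcc3 and Abcg2 are named for their roles or after their values were seen where this rule did not take them, and some genes that it took are not reported here. The total of counted reads per library limits the precision of scarce genes, and the limit given for a count of 0 is 3 counts and covers counting error only.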

Additional observations from a re-analysis of the deposited data

How the results depend on the processing

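The counts of called genes in ABpIF/+ against Ctrl (8 of 10) and in ABpIF/F against Ctrl (7 of 10) stayed within 1.5 times under RLE size factors, a filter on low counts, the method of edgeR 4, no robust estimation, DESeq2, an adjusted p under 0.05, a fit of the 2 groups compared and the score of the clock genes as a covariate. When the log2 fold change had to reach 2 in size they were 5 and 3. With BG3 as the sole Ctrl mouse, an alternative added after seeing the data, the count in ABpIF/F was 4. Between the ABpIF groups the count was 1, with DESeq2 it was 2, and in a fit of those 2 groups alone 0. Leaving out 1 mouse at a time gave 8 to 9, 7 to 8 and 0 to 1 calls in the 3 comparisons. The clock gene score as a covariate turned the sign of uncalled differences between ABpIF/+ and ABpIF/F, to -0.18 for Ugt2a3 and to -0.39 for Ugt2b34. It made Ugt2b37 a call there, at -3.75 (adjusted p = 0.00486). Because the score nearly coincides with the ABpIF/F group apart from malpa387, these fits do not cleanly separate clock from genotype. Leaving out mice turned the sign of further uncalled values, which ranged from -0.30 to 0.019 for Ugt1a1 and from -0.069 to 0.23 for Ugt2b34 between the ABpIF groups, from -0.19 to 0.050 for the ratio of Ugt2a3 to Ugt2b34 in ABpIF/F against Ctrl and from -0.11 to 0.37 for that of Ugt2b35 to Ugt2b36 between the ABpIF groups. With 2 ABpIF/F mice left, no ratio could pass its exact test against 6 mice. With all exon bases as the length, the share of Ugt1a1 in the UGT pool was 11.4%, 16.7% and 16.4% in Ctrl, ABpIF/+ and ABpIF/F mice. The cause of these changes was not tested. The other deposited table was not run as an alternative, since its 10 columns used here hold the same counts in all 271790 cells compared. No paired analysis was possible because the labels give the mice no shared number across groups. Depth limits Ugt2b37 and Ugt2b38 most, with 0 to 9 and 1 to 13 reads in an ABpIF/+ library.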
